A study of Mus musculus with 6 samples.

Results

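The genes of cholesterol and fatty acid synthesis were followed in mouse embryoid bodies, the aggregates in which embryonic stem cells differentiate in suspension. The list held 32 genes, listed by their known role: 18 enzymes of the sterol route, 8 of the fatty acid route, and 6 regulators and carriers of sterols. Of these, 31 had a probe set named for them and the same 31 passed the signal filter, out of 13608 genes tested. Acat2 had no probe set named for it in the annotation used, so its transcript was not measured, and it enters only the promoter counts. The study placed microspheres inside bodies of the D3 embryonic stem cell line, cultured under rotation without the cytokine LIF, and sampled them at day 10. Control bodies (3 arrays) held gelatin-coated microspheres with the dye CellTracker Red, and RA bodies (3 arrays) held gelatin-coated microspheres loaded with retinoic acid (RA), the vitamin A metabolite that binds the nuclear receptors RAR. The labels do not say whether the RA microspheres also carried the dye, so the dye may or may not differ between the groups. The labels also state that microsphere-to-cell ratios and rotary speeds varied, without giving those of the arrayed bodies. A single cell line was used. Whether the triplicates were separate cultures is not stated, so a p-value here covers array-to-array spread that may be technical only.

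Cholesterol is built from acetyl-CoA through mevalonate, isoprenoids, squalene and lanosterol, and fatty acids from the same acetyl-CoA through malonyl-CoA. Both routes are under the membrane-bound transcription factors SREBP-1 (gene Srebf1) and SREBP-2 (Srebf2). When sterols in the endoplasmic reticulum are low, the escort protein SCAP carries these factors to the Golgi, where proteases release the active part, and INSIG proteins hold SCAP back when sterols are plentiful. SREBP-2 acts mainly on sterol genes and SREBP-1c mainly on fatty acid genes, and many target promoters pair a sterol response element with a CCAAT box, which binds the factor NF-Y.

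Promoters of 3 sterol enzymes and 1 regulator that rose are shown as examples, because members of this route are known to share these elements. A promoter was found for 25 of the 32 members in the RefSeq table of the GRCm38.p6 build, and the 250 bases before each annotated start were searched on both strands for TCACNCCAC, a strict form of the sterol response element, and for CCAAT. Capitals mark both motifs, and ATTGG is CCAAT on the other strand. The windows were chr13:119690101-119690350 on the plus strand for Hmgcs1, chr13:8885356-8885605 on the plus strand for Idi1, chr5:4104698-4104947 on the minus strand for Cyp51, chr5:28071162-28071411 on the plus strand for Insig1, and chr5:114444019-114444268 on the plus strand for Mvk. The first 4 belong to genes that rose with RA, and Mvk, which was not called on its brightest probe set, was chosen after its motifs were seen, as the window with the most CCAAT boxes. Each window ends at the base before the annotated start and is written 5′ to 3′ in the direction of the gene.
Hmgcs1: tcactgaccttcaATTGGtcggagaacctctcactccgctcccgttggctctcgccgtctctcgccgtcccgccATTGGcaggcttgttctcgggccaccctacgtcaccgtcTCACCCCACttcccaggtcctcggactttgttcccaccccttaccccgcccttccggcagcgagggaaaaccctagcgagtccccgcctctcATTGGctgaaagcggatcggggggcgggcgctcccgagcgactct
Idi1: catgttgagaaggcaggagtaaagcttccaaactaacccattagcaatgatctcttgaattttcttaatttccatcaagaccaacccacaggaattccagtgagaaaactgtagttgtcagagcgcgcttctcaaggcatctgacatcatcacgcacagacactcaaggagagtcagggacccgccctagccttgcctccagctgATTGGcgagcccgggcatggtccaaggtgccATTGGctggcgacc
Cyp51: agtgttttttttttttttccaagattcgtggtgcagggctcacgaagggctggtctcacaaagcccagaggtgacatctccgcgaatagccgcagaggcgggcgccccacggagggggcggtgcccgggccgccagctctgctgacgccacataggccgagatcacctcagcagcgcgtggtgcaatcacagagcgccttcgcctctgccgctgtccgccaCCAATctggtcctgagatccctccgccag
Insig1: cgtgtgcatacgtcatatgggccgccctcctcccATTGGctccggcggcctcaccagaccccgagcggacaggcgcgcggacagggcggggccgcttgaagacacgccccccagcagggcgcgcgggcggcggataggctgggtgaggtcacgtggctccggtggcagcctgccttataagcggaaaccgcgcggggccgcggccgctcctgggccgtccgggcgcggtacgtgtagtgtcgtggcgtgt
Mvk: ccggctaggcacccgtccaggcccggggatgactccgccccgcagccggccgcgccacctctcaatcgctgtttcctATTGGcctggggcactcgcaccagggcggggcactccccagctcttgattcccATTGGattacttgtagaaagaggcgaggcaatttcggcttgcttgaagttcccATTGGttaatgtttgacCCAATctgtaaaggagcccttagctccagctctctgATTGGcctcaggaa
The strict sterol element was found in Hmgcs1 alone of the 25 members, where it began 137 bases before the start, and in 1.05% of all 32851 promoters of this length. CCAAT was found in 14 of 15 sterol enzymes, 4 of 5 SREBP regulators and 1 of 5 fatty acid enzymes with a promoter in the table, counting a gene with several promoters once if any held it. The sterol enzyme without it was Acat2, which was not measured on the arrays. CCAAT was present in 33.8% of all promoters, and 39.8% of the 10948 tested genes with a promoter had it. The Mvk window held 5 CCAAT boxes, against 3 in Hmgcs1, 2 in Idi1 and 1 each in Cyp51 and Insig1. Among all members with a promoter in the table, CCAAT was present in 6 of 9 called higher and in 12 of 14 not called. Those called higher without it were the fatty acid enzymes Acaca, Acly and Elovl6. Those not called and without it were Fads2 and Scap, so every measured sterol enzyme with a promoter had it. GGGCGG, the core of the Sp1 site, was present in 14 of 15 sterol enzymes and in 60.8% of the tested genes. A match describes the letters in a window and does not show that a factor bound there.

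Enzymes of the sterol route were higher in RA bodies. Of 17 measured enzymes 7 rose and 0 fell (limma with Benjamini-Hochberg adjustment over all genes), and 15 of the 17 had a positive difference. All 3 RA arrays lay above all controls in 9 of the 17 and below them in 0. Across all genes tested, 14.3% were called higher, 15.6% lower and 30.0% in either direction. RA arrays lay wholly above the controls in 21.8% of all genes, below in 22.2%, and apart in either direction in 44.0%. The median log2 fold change was 0.27 for the sterol enzymes, against 0.01 for all genes. The 7 rises lay between 1.39-fold and 1.97-fold, with limma adjusted p from 7.15e-06 to 0.00793. On the brightest probe set of each gene no member of the whole list reached a 2-fold change, although dimmer probe sets of Scd1 (log2 1.58) and Idi1 (log2 1.17) did, whereas 7.97% of all genes were called with a change of that size. Without control array 3, the dimmest, and RA array 1 together, 7 sterol enzymes were again called higher and 0 lower.

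The values below are log2 of the normalized signal, in the order control arrays 1, 2 and 3 and then RA arrays 1, 2 and 3, and a level on this scale is not compared between genes because each probe set has its own response. Hmgcs1, the cytosolic synthase that condenses acetyl-CoA units ahead of mevalonate, read 11.65, 11.63 and 11.54 in controls and 12.42, 12.32 and 12.43 with RA. The RA arrays all lay above the controls, and the difference of 0.79 ± 0.07 (SE) was many times the spread within either group (limma adjusted p = 7.15e-06). The chosen probe set carries the suffix _x_at, which Affymetrix gives to probes that may match other transcripts. The other 3 probe sets of Hmgcs1 above the filter were also called higher, by 0.74 to 0.90.

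The next steps of the mevalonate segment were not called on their brightest probe sets. Mvk (mevalonate kinase), Pmvk (phosphomevalonate kinase) and Mvd (the decarboxylase that closes the segment) had log2 fold changes of 0.33 ± 0.17, 0.14 ± 0.14 and 0.14 ± 0.15 (SE), and none passed. The mean of the kept probe sets of Mvk did pass (0.50, limma adjusted p = 0.0417), its dimmer one showing a difference of 0.67. In Mvk the RA arrays (7.52 to 7.84) nevertheless lay above the controls (7.12 to 7.42), while the groups overlapped in Pmvk and Mvd.

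Both enzymes that make and join isoprenoid units rose. Idi1, which isomerizes isopentenyl diphosphate, read 9.52, 9.15 and 9.27 in controls and 10.20, 10.23 and 10.25 with RA. It was 1.88 times higher (log2 0.91 ± 0.10, limma adjusted p = 5.37e-05), and its RA arrays were closer together than its controls. Fdps, farnesyl diphosphate synthase, stood at 9.09, 8.97 and 8.40 in controls and at 9.43, 9.86 and 9.94 with RA. The groups did not overlap, but control array 3 lay well below the other controls and RA array 1 below the other RA arrays. The difference was 0.92 ± 0.18 (limma adjusted p = 0.00248), and it was 0.72 without control array 3, where it still passed.

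From farnesyl diphosphate to lanosterol, the later enzymes of the segment rose. Sqle, squalene epoxidase, a rate-limiting step of the route, had the largest change of all members on the brightest probe sets. On the mean of kept probe sets Scd1 (1.20) and Idi1 (1.04) exceeded it. Sqle read 9.23, 9.05 and 8.94 in controls and 10.01, 10.02 and 10.12 with RA, which is 1.97 times higher (log2 0.98 ± 0.10, limma adjusted p = 2.39e-05), with a wide gap between groups. Lss, lanosterol synthase, read 8.60, 8.39 and 8.52 against 8.90, 9.31 and 9.15, again without overlap (0.62 ± 0.13, limma adjusted p = 0.00326). Its 3 probe sets disagreed, ranging from -0.07 to 0.62, and their mean did not pass (0.32, limma adjusted p = 0.0594). Fdft1, squalene synthase, did not pass (0.21 ± 0.08, limma adjusted p = 0.0685), although its RA arrays lay just above the controls. It passed without control array 3 (0.26), and its second probe set above the filter showed a difference of -0.01.

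After lanosterol, only the early demethylation steps were called. Cyp51, lanosterol 14-alpha-demethylase, read 8.63, 8.84 and 8.76 in controls and 9.64, 9.49 and 9.83 with RA. It was 1.88 times higher without overlap (log2 0.91 ± 0.11, limma adjusted p = 0.000114), and its second probe set rose by 0.75. Msmo1, the C4 methyl sterol oxidase, stood at 9.50, 9.52 and 9.51 in controls, within 0.01 (SD) of each other, and at 10.15, 9.72 and 10.06 with RA. Its difference was 0.47 ± 0.11 (limma adjusted p = 0.00793), and RA array 2 lay nearest to the controls.

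The remaining 6 enzymes of this segment had differences on either side of 0 and did not pass. Nsdhl and Hsd17b7 act in C4 demethylation, Ebp shifts a ring double bond, Sc5d introduces one, Dhcr7 reduces one, and Tm7sf2 is a C14 reductase. Their log2 fold changes were 0.21 ± 0.11 for Nsdhl, -0.33 ± 0.17 for Hsd17b7, -0.05 ± 0.13 for Ebp, 0.08 ± 0.14 for Sc5d, 0.25 ± 0.16 for Dhcr7 and 0.27 ± 0.30 for Tm7sf2 (SE). The groups overlapped in all 6. In Tm7sf2 control array 3 (6.10) lay far below the other controls (7.31 and 7.01), and without it the difference was -0.085. Among the 4 segments, 1 of 4 mevalonate enzymes, 2 of 2 isoprenoid enzymes, 2 of 3 enzymes from squalene to lanosterol and 2 of 8 enzymes after lanosterol rose. A difference between segments was not tested.

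**Figure D1:**
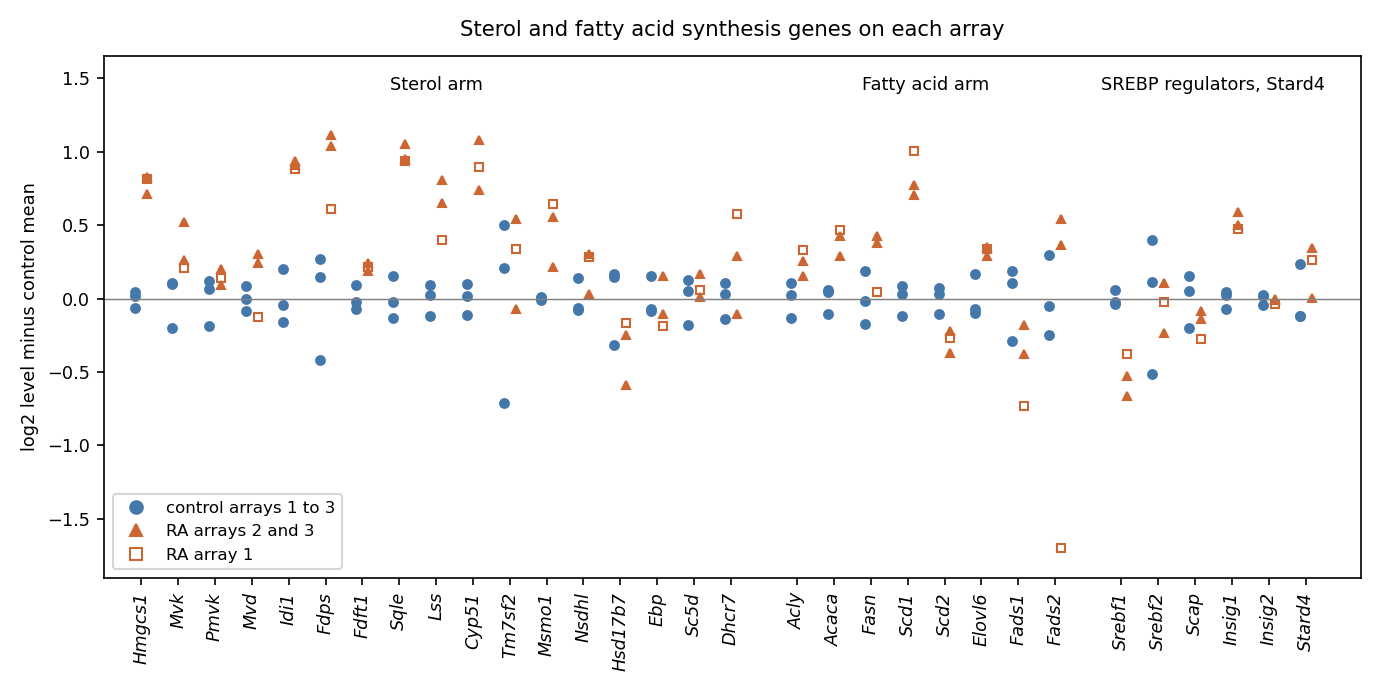
Log2 level of each tested gene on each array minus the mean of the 3 control arrays, for the sterol enzymes, the fatty acid enzymes and the SREBP group, with circles for control arrays, filled triangles for RA arrays 2 and 3 and open squares for RA array 1. The RA symbols lie above the control symbols in Hmgcs1, Mvk, Idi1, Fdps, Fdft1, Sqle, Lss, Cyp51 and Msmo1. The same holds for Acly, Acaca, Scd1, Elovl6 and Insig1. RA array 1 stands far below the rest in Fads2.

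Averaged over the 17 sterol enzymes, each centred on its own mean over the 6 arrays, the level was -0.14, -0.20 and -0.26 on control arrays 1, 2 and 3. It was 0.18, 0.17 and 0.25 on RA arrays 1, 2 and 3, so the groups were apart by more than their spread. For the 8 fatty acid enzymes the same average was -0.03, -0.09 and -0.09 in controls and -0.13, 0.17 and 0.16 with RA, with RA array 1 below all controls. Without Fads2, a choice made after its values were seen, the 7 others averaged -0.01, -0.12 and -0.16 in controls and 0.07, 0.13 and 0.09 with RA.

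Fatty acid enzymes were called in both directions. Of 8 measured enzymes 4 rose and 1 fell (limma adjusted p under 0.05, against 14.3% and 15.6% of all genes), with a median log2 fold change of 0.27, the same as for the sterol enzymes to 2 decimals. A difference between the sterol and fatty acid enzymes was not tested. Scd1 was 1.78 times higher, and the other calls were 1.19-fold to 1.31-fold. With any single array left out, 2 or 3 enzymes were called higher. Acaca, Acly and Fasn lie on chromosome 11, whose 1119 tested genes had a median of -0.20 against 0.03 for all other genes, and 28.6% of which were called lower. The part of this shift in their values was not tested.

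Acly, which makes cytosolic acetyl-CoA from citrate, read 11.38, 11.23 and 11.46 in controls and 11.69, 11.51 and 11.62 with RA. The groups came close without touching, and the difference of 0.25 ± 0.08 passed narrowly (limma adjusted p = 0.0411). Leaving out control array 1 (0.26), control array 2 (0.18), RA array 1 (0.20) or RA array 3 (0.24) ended the call. The mean of the kept probe sets of Acly did not pass either (0.26, limma adjusted p = 0.127). Acaca, acetyl-CoA carboxylase, which commits carbon to fatty acids, read 8.42, 8.57 and 8.58 against 8.99, 8.95 and 8.81, with all RA arrays higher. Its difference was 0.39 ± 0.11 (limma adjusted p = 0.0184), and the call ended when control array 1 (0.34), RA array 1 (0.35) or RA array 2 (0.38) was left out. Its dimmer probe set showed a difference of 0.0093, and the mean of both did not pass (0.20, limma adjusted p = 0.311).

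Fasn, the synthase that builds palmitate, read 10.26, 9.90 and 10.06 in controls and 10.12, 10.50 and 10.45 with RA. RA array 1 fell among the controls and the gene did not pass (0.28 ± 0.12, limma adjusted p = 0.101), but it passed without that array (0.40, limma adjusted p = 0.0219). Elovl6, the elongase of palmitate, read 9.32, 9.06 and 9.09 against 9.49, 9.50 and 9.44, a difference of 0.33 ± 0.10 without overlap (limma adjusted p = 0.0309). Both of its probe sets above the filter passed, but its call was lost without any one of the arrays except control array 1 (0.28 to 0.34).

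The stearoyl-CoA desaturases Scd1 and Scd2, which introduce the first double bond, went in opposite directions. Scd1 read 9.00, 8.94 and 8.80 in controls and 9.92, 9.69 and 9.62 with RA, 1.78 times higher (log2 0.83 ± 0.11, limma adjusted p = 0.000160) with a clear gap. Its second, dimmer probe set rose by 1.58. Scd2 read 12.68, 12.72 and 12.55 in controls and 12.38, 12.28 and 12.43 with RA, a small fall without overlap (-0.29 ± 0.07, limma adjusted p = 0.0108). This call depended on the processing. The value was -0.18 when arrays were scaled to a common trimmed mean (limma adjusted p = 0.116). It was 0.13 without scaling, where the median of all genes was 0.26. Relative to that median it was -0.13. The call was also lost on the mean of its kept probe sets (-0.32, limma adjusted p = 0.0840) and in eBayes without a trend (limma adjusted p = 0.107). All 3 probe sets of Scd2 had a lower mean with RA, from -0.43 to -0.25. Probe sets of such close relatives can also read one another.

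The desaturases of polyunsaturated fatty acids did not pass. Fads1, the delta-5 desaturase, had 9.64, 9.56 and 9.17 in controls and 8.73, 9.28 and 9.08 with RA (-0.43 ± 0.16, limma adjusted p = 0.0620). Its RA array 2 overlapped control array 3, and it passed as lower without either of those arrays (-0.55 and -0.58). Fads2, the delta-6 desaturase, read 8.01, 8.22 and 8.56 against 6.56, 8.63 and 8.80, with RA array 1 far below all other arrays. Its difference of -0.26 ± 0.45 turned to 0.45 without that array (limma adjusted p = 0.0739). On RA array 1 the ratio of 3-prime to 5-prime Gapdh probe sets, a sign of RNA integrity, was 34.0, against 3.06 to 4.74 on the other arrays, and its part in this reading was not tested. On the other 2 probe sets of Fads2, RA array 1 was not low (7.91 and 7.14), and their differences were 0.55 and 0.33.

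**Figure D2:**
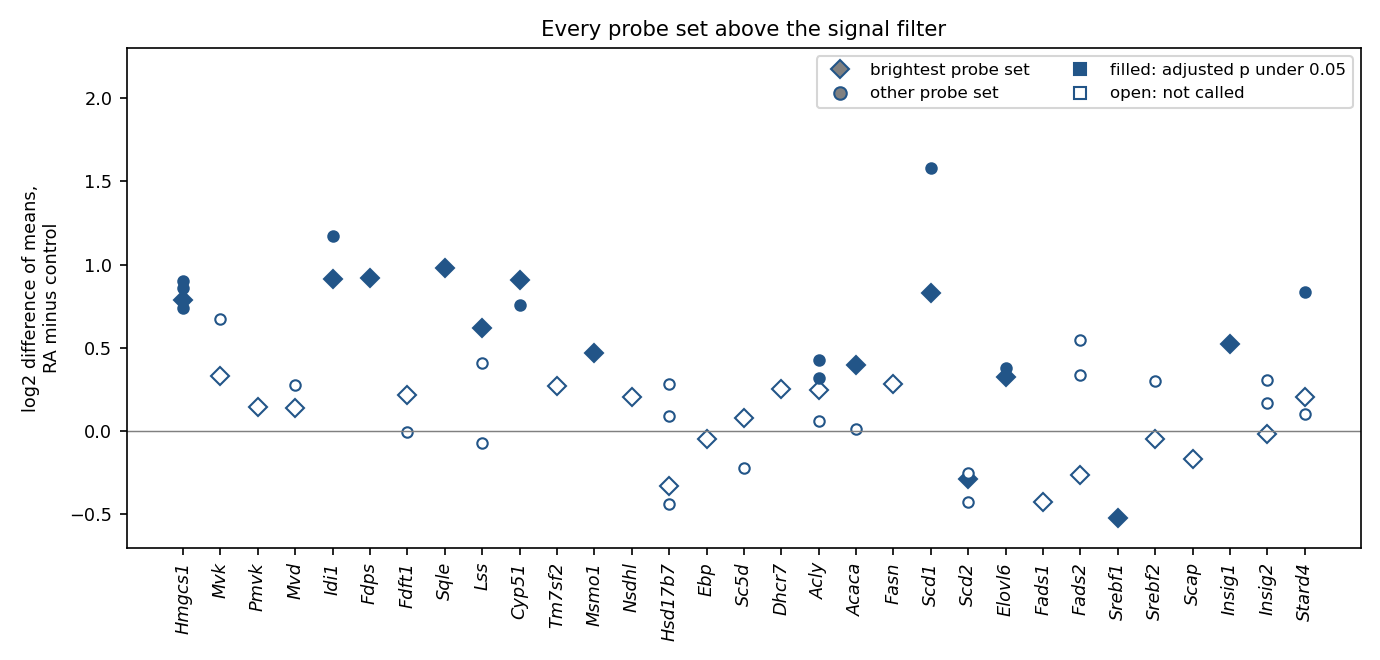
Difference of means (log2, RA minus control) for each of the 60 probe sets of the listed genes above the signal filter, with diamonds for the brightest of a gene and filled symbols for limma adjusted p under 0.05 in a fit over all kept probe sets. The 4 probe sets of Hmgcs1 lie together near 0.8, the pairs of Scd1 and of Idi1 are all raised, and those of Lss, Hsd17b7, Fads2 and Stard4 are spread.

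Of 18 genes with more than 1 probe set above the filter, 11 had differences of a single sign. The others were Fdft1, Lss, Hsd17b7, Sc5d, Fads2, Srebf2 and Insig2, and of these only Lss was called.

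Among the regulators, a rise of Insig1 stood beside a fall of Srebf1, and the other 4 did not pass on their brightest probe sets. This makes 1 higher and 1 lower of 6, near the shares among all genes. Insig1, which retains SCAP in the endoplasmic reticulum and is itself a known SREBP target, read 8.36, 8.26 and 8.37 in controls and 8.81, 8.83 and 8.92 with RA. The groups were far apart for their spread, at 1.44-fold (log2 0.52 ± 0.11, limma adjusted p = 0.00351). Insig2, its relative, had a control mean of 8.73 ± 0.04 and an RA mean of 8.71 ± 0.02 (SD, n = 3), a difference of -0.02 ± 0.10 (SE).

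Srebf1, the gene of SREBP-1, read 9.22, 9.23 and 9.31 in controls and 8.87, 8.73 and 8.59 with RA, with all RA arrays below the controls. It was 1.44 times lower (log2 -0.52 ± 0.11, limma adjusted p = 0.00340). Srebf1 lies on chromosome 11, with the lower median given above, and without scaling it was -0.23, which is -0.49 relative to the median of all genes, and did not pass (limma adjusted p = 0.626). It was measured by a single probe set, so SREBP-1a and SREBP-1c transcripts were not told apart. The fall of Srebf1 was measured beside rises in the fatty acid enzymes Scd1, Acaca, Acly and Elovl6. Of the other fatty acid enzymes listed, Scd2 fell, and Fasn, Fads1 and Fads2 did not pass.

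Srebf2, the gene of SREBP-2, read 8.61, 7.99 and 8.90 in controls and 8.47, 8.61 and 8.26 with RA. The wide controls enclosed the RA arrays (-0.05 ± 0.20, limma adjusted p = 0.885), and the sign changed on leaving out control array 1 (0.0072), control array 3 (0.15) or RA array 3 (0.042). Scap read 8.67, 8.57 and 8.32 in controls and 8.25, 8.44 and 8.38 with RA, with overlap (-0.17 ± 0.13, limma adjusted p = 0.378). Stard4, a cytosolic sterol carrier and known SREBP-2 target, had a difference of 0.21 ± 0.13 on its brightest probe set. A dimmer probe set rose by 0.83 (limma adjusted p = 0.00247 in a fit over all kept probe sets) and the third had a difference of 0.10. The transcript was thus not measured alike by all 3. The mean of the kept probe sets of Stard4 did pass (0.38, limma adjusted p = 0.0487). The mRNA of these regulators does not report how much SREBP was processed.

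**Figure D3:**
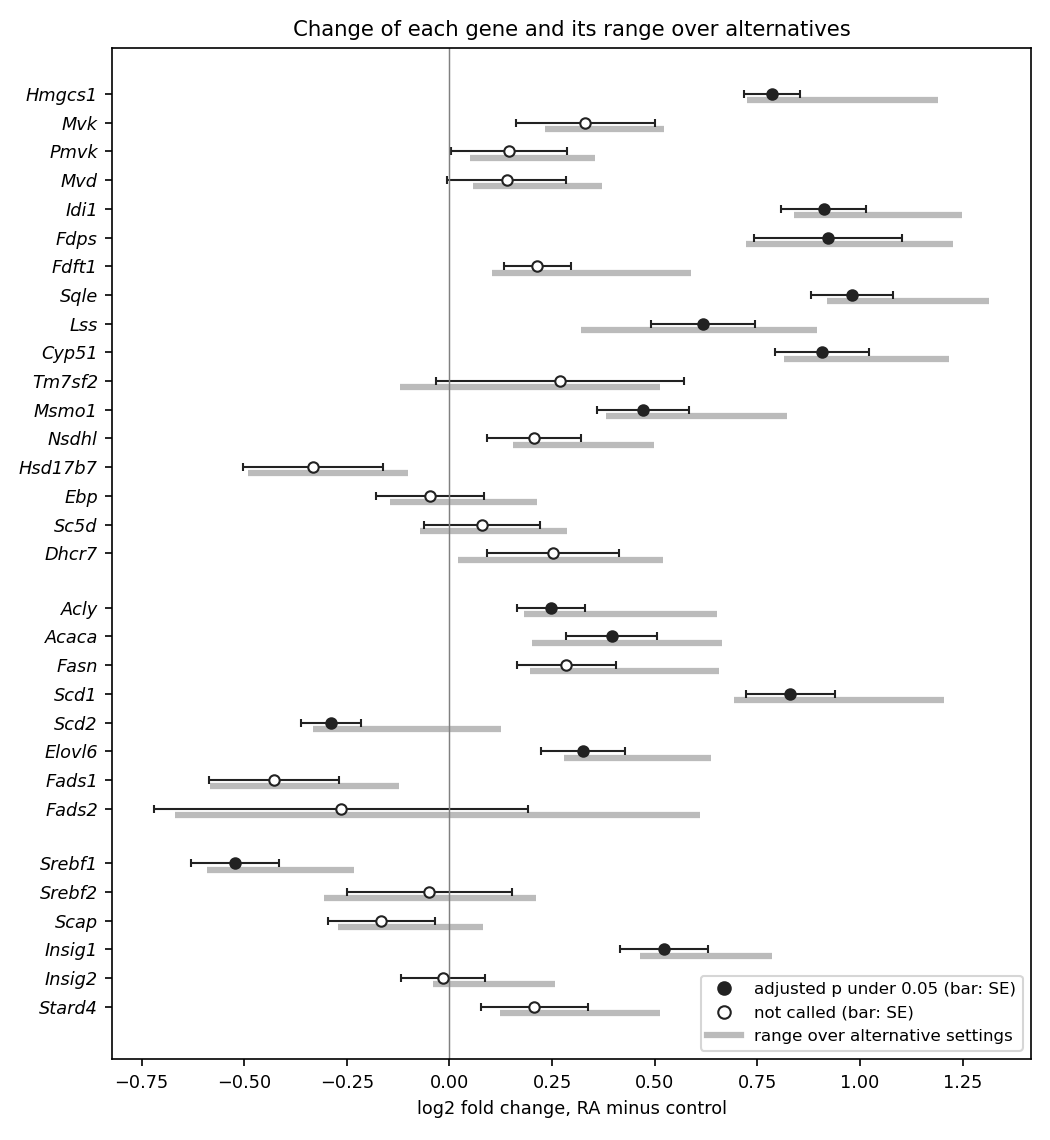
Log2 fold change (RA minus control) of the 31 tested genes with its SE, filled where the limma adjusted p was under 0.05, and in grey the range over 17 alternative settings. The grey ranges of Hmgcs1, Idi1, Fdps, Sqle, Cyp51, Scd1 and Insig1 stay above 0. So do those of Lss, Msmo1, Acly, Acaca and Elovl6, and of the uncalled Mvk, Pmvk, Mvd, Fdft1, Nsdhl, Dhcr7, Fasn and Stard4. Those of Tm7sf2, Ebp, Sc5d, Scd2, Fads2, Srebf2, Scap and Insig2 cross 0, and those of Srebf1, Hsd17b7 and Fads1 stay below it.

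Over 17 alternative settings, 7 of the 14 called members passed in all: Hmgcs1, Idi1, Fdps, Sqle, Cyp51, Scd1 and Insig1. Lss, Msmo1 and Srebf1 each failed in 1. Acly passed in 7 of the 17, Elovl6 in 9, Acaca in 11 and Scd2 in 13. All 7 that always passed were higher with RA, and 5 of them are sterol enzymes. The settings include no scaling, under which 72.8% of calls over all genes were higher, and Srebf1 failed only there.

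Of 9 other measured genes of sterol and isoprenoid metabolism, 1 rose and 1 fell, with a median of 0.19. These counts were near the 14.3% and 15.6% of all genes. All RA arrays lay above the controls in 4 of the 9 and below them in 2, against 21.8% and 22.2% of all genes. Fnta, the shared subunit of protein prenyltransferases, rose by 0.27 ± 0.07 (limma adjusted p = 0.0162), and Coq2, an enzyme of ubiquinone synthesis, fell by 0.35 ± 0.11 (limma adjusted p = 0.0303). Neither call held under every array left out, though the values stayed within 0.22 to 0.33 for Fnta and -0.40 to -0.32 for Coq2. Fnta missed the threshold on leaving out control array 1 (0.26), RA array 1 (0.22) or RA array 3 (0.25), and Coq2 on leaving out control array 2 (-0.36), control array 3 (-0.32), RA array 1 (-0.32) or RA array 2 (-0.32). Without scaling Fnta was 0.67 and Coq2 -0.077, where the median of all genes was 0.26, and neither passed. Of 7 genes of SREBP processing and degradation at the endoplasmic reticulum, Erlin2, a binding partner of SCAP and INSIG, was the only call (-0.55 ± 0.15, limma adjusted p = 0.0196). It missed the threshold on leaving out control array 2 (-0.42), RA array 1 (-0.44) or RA array 3 (-0.51) and without scaling (-0.29). Across all genes, 15.6% were called lower. Of the 7 genes, 0 had a positive difference, against 6960 of all 13608. The median of the 7 was -0.23. Without scaling between arrays it was 0.04, where the median of all genes was 0.26.

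Of 12 genes of sterol uptake, storage and efflux, 1 rose and 5 fell, against 14.3% and 15.6% of all genes, with a median of -0.02. The count of falls was 2 to 4 with any 1 array left out and 1 without scaling between arrays. Abca1, the cholesterol exporter, went from 8.74 ± 0.09 to 7.57 ± 0.06 (SD, n = 3), 2.25 times lower on its brightest probe set (limma adjusted p = 3.24e-05), but the mean of its kept probe sets did not pass (-0.35, limma adjusted p = 0.174). Lipa, the lysosomal lipase that frees cholesterol from esters, was 1.74 times lower (limma adjusted p = 0.00114), a call lost without scaling (log2 -0.57). The lysosomal cholesterol exporters Npc1 and Npc2 differed in sign. Npc1 rose by 0.73 ± 0.15 (limma adjusted p = 0.00378), and Npc2 fell by 0.33 ± 0.08 (limma adjusted p = 0.0109). The call of Npc2 was lost without RA array 3 (-0.30). Its value was 0.075 without scaling, where the median of all genes was 0.26.

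Of 20 further genes of fatty acid activation, elongation and supply, 4 rose and 2 fell, near the 14.3% and 15.6% of all genes, with a median of 0.07. Acsl4, an acyl-CoA synthetase that prefers arachidonate, was 2.21 times higher (8.64 ± 0.26 to 9.79 ± 0.02, SD, n = 3, limma adjusted p = 4.55e-05). Me1, malic enzyme, which supplies NADPH, was 1.88 times higher (limma adjusted p = 0.000521), and Hsd17b12, a reductase of fatty acid elongation, 1.72 times (limma adjusted p = 0.000303). Elovl1, an elongase of very long chains, and Acsl5, another acyl-CoA synthetase, fell by 0.40 ± 0.10 and 0.43 ± 0.13 (limma adjusted p = 0.00800 and 0.0268). Acsl5 missed the threshold when any 1 control array (-0.47 to -0.39) or RA array 3 (-0.31) was left out. Without scaling, where the median of all genes was 0.26, neither fall passed, at -0.071 for Elovl1 and -0.16 for Acsl5.

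Transcripts of fatty acid oxidation, the opposite process, were mostly called lower, and oxidation itself was not measured. Of 16 measured genes 0 rose and 13 fell, against 15.6% of all genes called lower, with a median of -0.65. Cpt1a, the entry step of fatty acids into mitochondria, read 8.14, 8.03 and 7.93 in controls and 5.96, 6.10 and 6.09 with RA. It was 3.96 times lower with a gap far wider than the spread (limma adjusted p = 9.62e-06). Acaa2, the mitochondrial thiolase, and Etfb, an electron carrier subunit of oxidation, were 2.68 and 2.23 times lower (limma adjusted p = 5.50e-06 and 5.18e-06). Without scaling, 7 of these genes were called lower, and without control array 3 and RA array 1 together, 13.

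**Figure D4:**
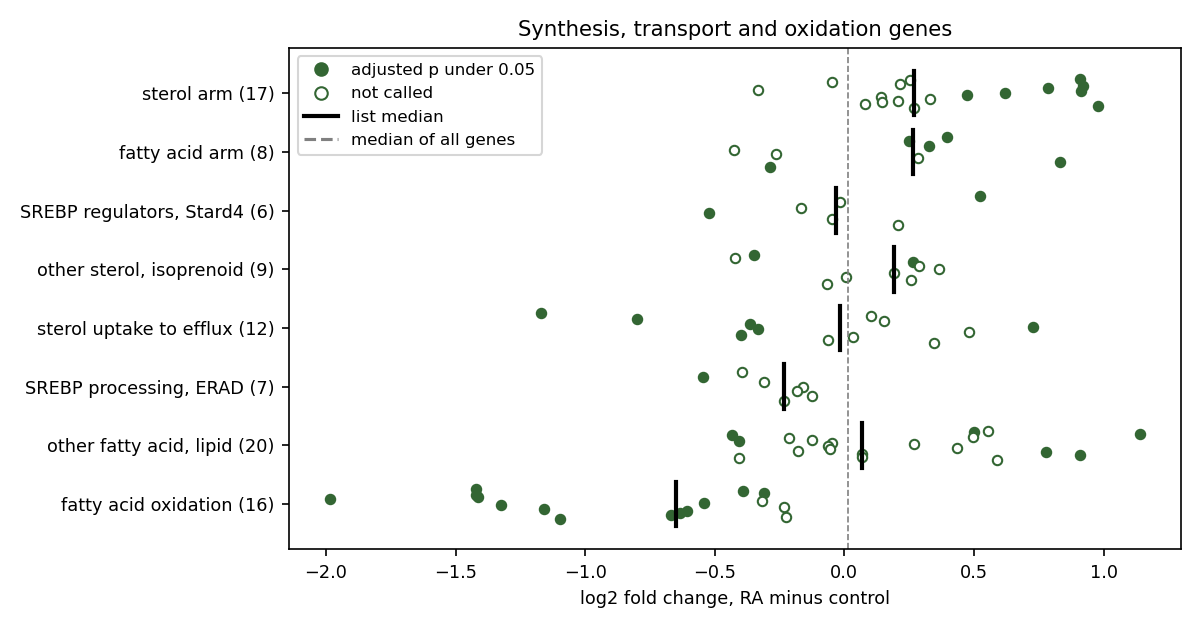
Log2 fold change (RA minus control) of each tested gene in the synthesis, regulator, transport and oxidation lists, filled where the limma adjusted p was under 0.05, with black bars for list medians and a dashed line for the median of all genes (0.01). The sterol enzymes lie mostly right of the dashed line, the fatty acid enzymes on both sides, and the oxidation genes all left of it (median -0.65).

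Each array measured whole bodies, so fewer cells of a type and less RNA per cell cannot be told apart. Many of the cell type markers listed here also changed, where 14.3% of all genes tested were called higher and 15.6% lower. The summed signal of 10 yolk sac and liver-type endoderm markers, cells known for lipid secretion, was 32034 to 34126 in controls and 8650 to 10022 with RA. Of these 10 genes 7 fell, Rbp4 and Alb with the smallest p. The 3 that rose were Cubn (log2 3.22), Amn (2.94) and Apob (1.10), so the sum does not describe every marker. All 8 epiblast and pluripotency markers rose, led by Dnmt3b and Fgf5, and their sum went from 1522 to 1791 up to 13337 to 13423. Heart muscle markers, known for fatty acid oxidation, fell in 5 of 6, with Myl7 and Myh6 first, from a sum of 9891 to 14709 down to 270.4 to 288.1. Of 6 fibroblast and smooth muscle markers 5 fell, led by Postn and Col3a1, and 1 rose (sum 15225 to 17755 against 2405 to 2527). Of 5 measured red cell markers 4 fell, led by Hbb-y and Hbb-bh1 (15237 to 17319 against 407 to 432). Neural markers rose in 3 of 6, led by Stmn2 and Fabp7 (436 to 658 against 2317 to 2784). Of 6 fat cell markers 2 passed the filter, of which Lpl fell and Fabp4 did not pass, and Adipoq, Pparg and Cebpa lay below it (sum 1071 to 1350 against 450 to 530). The part of these shifts in cell makeup in the synthesis genes and in the oxidation genes was not tested.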

How the data were processed

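Total RNA was labelled as biotin cRNA and hybridized to Affymetrix mouse arrays, 1 array for each of 6 samples. Per the labels, the deposited values are a linear signal intensity per probe set made by the authors with GCOS at default settings, whose version is not given in the sources used here. Array medians of intensity lay between 41.4 and 65.5, without a common level. Here log2(intensity + 16) was quantile normalized over 45037 probe sets after 64 control probe sets were left out. The pseudocount of 16 understates changes of dim genes. Probe sets were kept if their mean exceeded a log2 level of 5.74 (the 40th percentile). The brightest of them stood for a gene, among those annotated to 1 symbol (34945 probe sets had 1 symbol, 932 several and 9160 none). All 31 tested members had group means above that level, the lowest at 6.81. Genes were fitted with limma 3.58.1 in R 4.3.3 (lmFit, eBayes with trend, two-sided, no covariates) with Benjamini-Hochberg adjustment across the 13608 genes at 0.05. The fit was checked on simulated data. The number of arrays limits the precision. Members and lists were chosen with earlier results of these data known. All members are named, array values are given for the called ones and for 10 central genes, and from other lists up to 3 calls of each direction. Chromosomes and promoters came from RefSeq tables of GRCm38.p6, matched by symbol. Replicate numbers did not pair the arrays: deviations of same-numbered arrays correlated at -0.09, -0.01 and -0.03. Alternatives covered scaling, pseudocount, filter, probe set choice, prior, replicate block and left-out arrays.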

Additional observations from a re-analysis of the deposited data

How the results depend on the processing

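Calls of sterol enzymes ran from 6 to 8 higher, with 0 lower, under all 17 settings. Without scaling, the median over all genes moved from 0.01 to 0.26, 1745 genes were higher and 653 lower, and 72.8% of calls were higher against 47.8%. The medians then were 0.52 for the sterol, 0.64 for the fatty acid, 0.23 for the regulator, -0.36 for the oxidation and 0.10 for all companion genes. The counts were 1 higher and 0 lower fatty acid enzymes, 0 lower regulators, 7 lower oxidation and 8 lower companion genes. Sign changes there were Ebp 0.21, Scd2 0.13, Fads2 0.0076, Srebf2 0.21, Scap 0.082, Insig2 0.26 and the companion gene Npc2 0.075. Scaled to a trimmed mean, 0 fatty acid enzymes were lower and Sc5d was -0.00071. With the mean of a gene's kept probe sets, 2 fatty acid enzymes were higher and 0 lower, 2 regulators were higher, and the medians were 0.14 for regulators, -0.78 for oxidation and -0.14 for companions. Sign changes were Sc5d -0.072, Fads2 0.21, Srebf2 0.12 and Insig2 0.15. Without a trend in eBayes, 2 fatty acid enzymes were higher and 0 lower, and 14 companion genes were lower. Pseudocounts of 1 and 64 gave a sterol median of 0.32 and an oxidation median of -0.61. At the 60th percentile filter the companion median was -0.23. With all kept probe sets as features, an alternative chosen after seeing the data, 3051 were higher because more features were tested.

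Without control array 3 and RA array 1 together, 2 fatty acid enzymes were lower, the medians were 0.066 for regulators, -0.70 for oxidation and -0.15 for companions, and the sign changes were Tm7sf2 -0.12, Ebp 0.10, Fads2 0.61 (limma adjusted p = 0.0138), Srebf2 0.14 and Insig2 0.0084. Leaving out 1 array gave 2 to 3 fatty acid enzymes higher and 1 to 2 lower. Medians ranged from 0.23 to 0.37 for the sterol enzymes, from -0.090 to 0.074 for regulators, from -0.79 to -0.62 for oxidation and from -0.19 to -0.14 for companions. Members whose sign changed ranged from -0.15 to 0.031 (Ebp), -0.010 to 0.14 (Sc5d), -0.085 to 0.51 (Tm7sf2), -0.67 to 0.45 (Fads2) and -0.31 to 0.15 (Srebf2). With the replicate block, 1775 genes were higher and 1949 lower, and 7 sterol enzymes and 4 fatty acid enzymes were higher. The cause of these changes was not tested. A p that misses the threshold does not show that a gene was unchanged.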
